A study of Rattus norvegicus with 8 samples.

Results

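The genes described here are 10 parts of the Notch pathway in cultured rat thymocytes, the immature T cells of the thymus: the receptors Notch1, Notch2 and Notch3, the ligands Dll1, Jag1 and Jag2, the nuclear partner Rbpj, and the target genes Hes1, Hey1 and Dtx1. Of these 10 genes, 8 were found on the array by their printed name. Dtx1 and Rbpj appear there as LOC687424 and LOC679028 and were found through these gene numbers. Each of the 10 was measured by a single 60-base probe, among 41012 probes and 16368 gene symbols in all. Thymocytes of adrenalectomized male Sprague-Dawley rats, from the pooled thymi of 3 animals, were cultured for 6 h without hormone (Control) or with 100 nM dexamethasone (Dex), a synthetic glucocorticoid that induces apoptosis in these cells. Loss of the adrenal glands, which make the animals' own glucocorticoids, and the serum-containing medium were shared by both groups, and the age of the animals is not given in the sources used here. Each group has 4 arrays numbered 1 to 4, although the study states 3 biological replicates, so the p-values below measure the spread between these arrays, which may be technical in part. The suspension was filtered and not sorted, and in such bulk RNA fewer cells of a type and less RNA per cell cannot be told apart.

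Notch receptors are single-pass membrane proteins that are cut in succession after they bind a Delta-like or Jagged ligand on a neighboring cell. The freed intracellular part enters the nucleus, binds the DNA-binding protein RBPJ together with Mastermind-like cofactors, and switches on genes such as those of the HES and HEY repressors. In the thymus, Notch1 signaling triggered by ligands on epithelial cells commits progenitors to the T lineage, and it is shut down as thymocytes pass the pre-TCR checkpoint.

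Expression was read as the intensity of each probe, taken to log2 and quantile normalized between the arrays, and is called the normalized log2 signal below. Since probes differ in brightness for reasons other than RNA level, no probe was set against another. By the flags of the scanner software, 24903 to 34473 probes of an array stood well above background and none was saturated. Dex arrays 1 and 2 had the fewest probes above background, at 26471 and 24903, and Dex arrays 3 and 4 had the lowest 75th percentile of the intensity, at 266 and 264 units against 317 to 428 on the other arrays. The 4 Dex arrays also formed 2 pairs. Dex 1 correlated across probes with Dex 2 at r = 0.984 and Dex 3 with Dex 4 at r = 0.990, while the correlations between these pairs were 0.919 to 0.943. The lowest correlation among the Control arrays was 0.975. Over all probes the median absolute gap between the means of Dex 3 and 4 and of Dex 1 and 2 was 0.71 on the log2 scale, against 0.27 for the same arrays of Control. The arrays lay on 3 slides, of which only that of Control 1 and Dex 3 held both groups, so for the other 6 arrays slide and treatment cannot be told apart. Of 12 thymocyte markers on the array, 11 were well above background on all 8 arrays and Cd8b on 7, its spot on Control 1 being left out as an outlier. The mean level of these 11 ranged from 12.46 to 12.60 in Control and from 11.98 to 12.47 in Dex (exact two-sided permutation test, p = 0.0571, adjusted p = 0.133 over 7 marker lists). Of 7 fibroblast markers, 6 were higher in Dex, their mean ranged from 4.10 to 4.43 in Control and from 4.69 to 5.06 in Dex, and Pdgfra, Dcn and Lum were not well above background on any array (exact two-sided permutation test, p = 0.0286, the smallest that 8 arrays allow, adjusted p = 0.133). Of 7 endothelial markers, 4 were higher in Dex and the mean ranged from 6.25 to 6.51 in Control and from 6.48 to 6.79 in Dex (exact two-sided permutation test, p = 0.0571, adjusted p = 0.133). The endothelial adhesion gene Pecam1 passed the test (log2 fold change 1.36, limma adjusted p = 0.0208), and did not once the replicate number was a block (limma adjusted p = 0.108), while Vwf, which endothelial cells store for clotting, lay lower in Dex without overlap (log2 fold change -0.53, limma adjusted p = 0.302), Kdr, a receptor for vascular growth factor, differed by -0.68 and Egfl7 by -0.08. Of 11 macrophage markers, 6 were higher and 5 lower in Dex (exact two-sided permutation test, p = 0.114, adjusted p = 0.2). Among them Mrc1 differed by 2.12 (limma adjusted p = 0.087). Of 8 markers of thymic epithelium, 7 were higher in Dex (exact two-sided permutation test, p = 0.486, adjusted p = 0.567). The other 1, Cdh1, lay lower without overlap, at -1.18. The part of these cells in the results below was not tested.

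None of the 10 genes passed an adjusted p of 0.05 in the limma test over all probes, a threshold that 0.778% of the probes passed. Dtx1 and Dll1 were the 2 members with an unadjusted limma p under 0.05, as had 10.6% of all probes. The same 2 genes were called by the signal to noise statistic of the study's methods against a null built here, as were 6.79% of all probes. They were also the 2 members whose Dex and Control arrays did not overlap, as was the case for 9.11% of all probes. The members' share of 2 in 10 rests on 2 genes and is not read further. Of the 10, 5 had a higher and 5 a lower mean in Dex. The median of their log2 fold changes was 0.06, or 0.25 without Jag1, which was not well above background on any Dex array, against 0.01 over all gene symbols. For Notch1, Notch3, Hey1 and Rbpj the 95% interval excluded a change of 2-fold in either direction, and for the other 6 it did not.

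**Figure D1:**
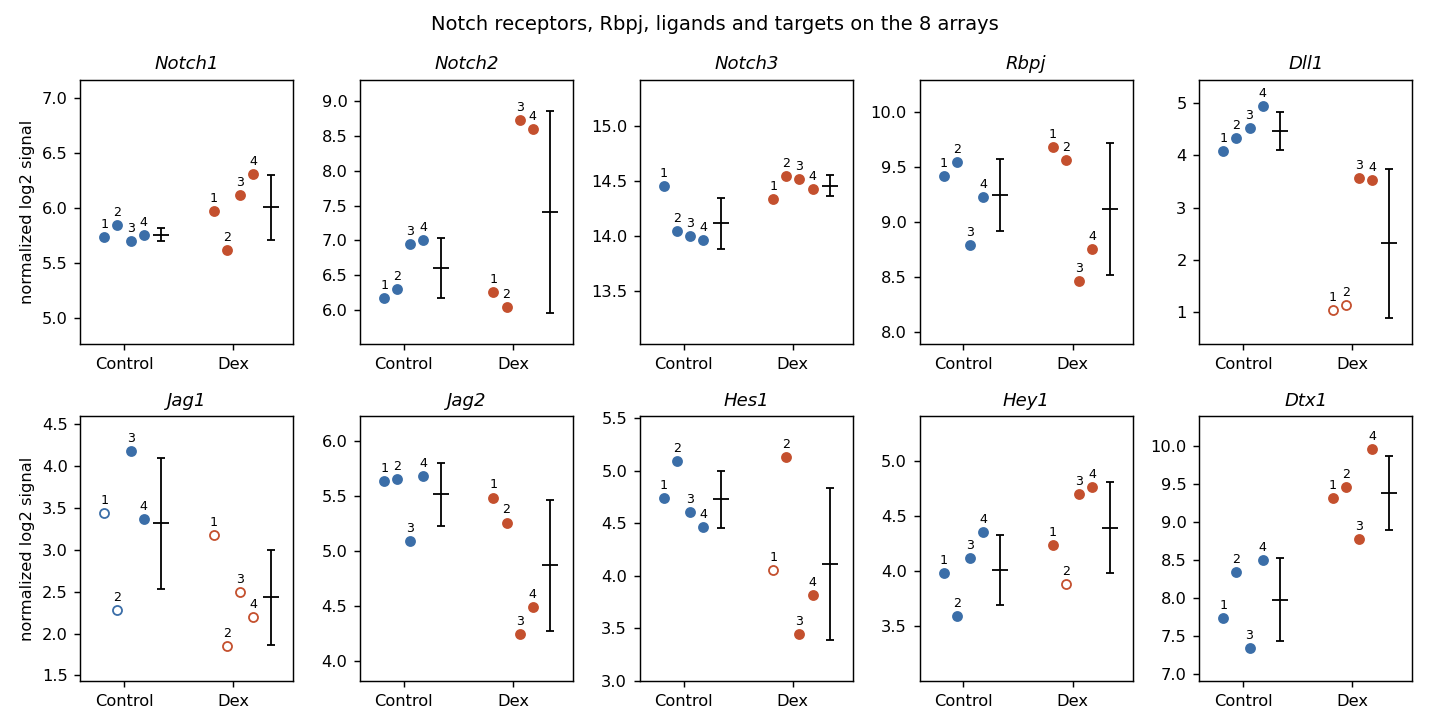
Normalized log2 signal (y axis) of the 10 genes on each Control (blue) and Dex (orange) array, numbered by replicate. Open circles mark arrays on which the probe was not well above background, and black bars give the mean ± SD of 4 arrays. Dtx1 is higher on every Dex array and Dll1 lower, while Notch2 differs between Dex 1 and 2 and Dex 3 and 4.

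The 3 receptors all had a higher mean in Dex, and none passed the test. Notch1, the receptor that commits progenitors to the T lineage, read 5.74, 5.85, 5.70 and 5.76 on Control arrays 1 to 4 and 5.98, 5.62, 6.12 and 6.31 on Dex arrays 1 to 4. All Control arrays lay within 0.15 of each other, 3 Dex arrays lay above them and Dex 2 below. The log2 fold change was 0.25 ± 0.18 (SE, n = 4 arrays per group, limma adjusted p = 0.709), with a 95% interval from -0.17 to 0.66. It was 0.15 without Dex 4, 0.11 with the normexp background correction, 0.039 without Dex 3 and 4, 0.42 without Dex 1 and 2 and 0.38 between Dex 3 and Control 1, which shared a slide. Notch3, a receptor of thymocytes that is induced by pre-TCR signals, read 14.46, 14.05, 14.00 and 13.96 in Control and 14.34, 14.54, 14.52 and 14.43 in Dex. Control 1 lay among the Dex arrays and the other 3 Control arrays lay below all of them. Its log2 fold change was 0.34 ± 0.17 (SE, limma adjusted p = 0.536), and on the slide that held both groups, Dex 3 exceeded Control 1 by 0.06.

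Notch2, the receptor that marginal zone B cells depend on, had the widest spread of the receptors. It read 6.17, 6.30, 6.95 and 7.001 in Control and 6.26, 6.05, 8.73 and 8.60 in Dex. Dex 1 and 2 thus lay within or below the Control range, and Dex 3 and 4 lay above every Control array. The gap between these 2 pairs of Dex arrays was 2.51 on the log2 scale, or 5.68-fold, a gap that 4.43% of all probes reached, and Control 3 and 4 exceeded Control 1 and 2 by 0.74. The log2 fold change over all arrays was 0.80 ± 0.66 (SE, limma adjusted p = 0.736), with a 95% interval from -0.72 to 2.32. Dex 3 exceeded Control 1 by 2.55 on their shared slide. Over fewer arrays the log2 fold change was 1.92 without Dex 1 and 2 and -0.48 without Dex 3 and 4, so its direction depended on which Dex arrays entered. Dex 3 and 4 also lay above all 6 other arrays for 9 of 42 markers of other cell types measured on every array (21.4%), for 0 of 11 thymocyte markers and for 16.4% of all gene symbols. Within the macrophage and the fibroblast list, markers differed in this split. On Dex arrays 1 to 4 the macrophage complement gene C1qc read 6.77, 6.50, 7.65 and 7.96 and C1qa, of the same complex, 7.96, 8.05, 6.59 and 7.18. The fibroblast collagen gene Col1a1 read 8.54, 8.42, 9.89 and 10.05 and Col1a2 7.40, 6.86, 8.77 and 7.99, the latter against 8.13 to 9.25 in Control. The part of such cells in the Notch2 values was not tested.

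**Figure D2:**
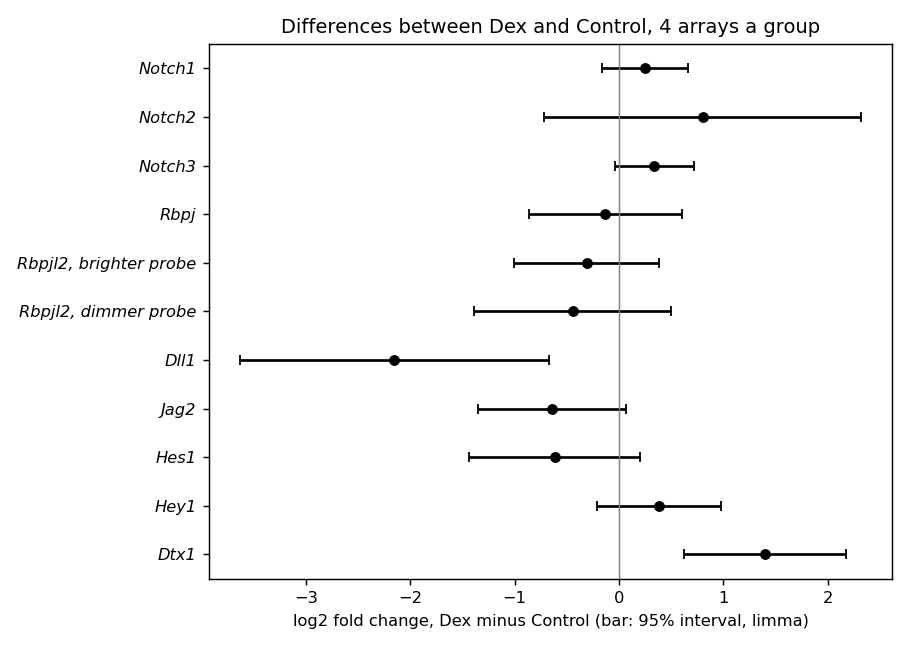
Log2 fold change (x axis, Dex minus Control) of 9 members, without Jag1, and of the 2 probes assigned to the pseudogene Rbpjl2, with 95% intervals from limma over 4 arrays per group. The intervals of Dtx1 and Dll1 leave out 0, that of Dll1 is among the widest, and those of all other genes shown include 0.

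Rbpj encodes the DNA-binding protein to which all Notch receptors couple. Its probe carries gene number LOC679028, the gene that lies on chromosome 14 in the current assembly (GRCr8), but in the array's own annotation (rn3) the probe lies on chromosome 5, within a span of 4360 bases that also holds 2 probes named Rbpsuh, an older name of this gene. In the current gene table that name belongs to Rbpjl2, a pseudogene on chromosome 5. The 3 probes are shown because the gene and the pseudogene could share signal. No rat genome was used here, so whether each probe reads the gene, the pseudogene or both was not tested.
Rbpj (LOC679028), rn3 chr5:4668382-4668441, + strand: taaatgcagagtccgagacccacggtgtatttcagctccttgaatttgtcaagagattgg
Rbpjl2 (Rbpsuh), brighter probe, rn3 chr5:4664082-4664141, + strand: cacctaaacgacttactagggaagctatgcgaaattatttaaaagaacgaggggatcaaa
Rbpjl2 (Rbpsuh), dimmer probe, rn3 chr5:4664854-4664913, + strand: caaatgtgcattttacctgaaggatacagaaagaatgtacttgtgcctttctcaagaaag

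The Rbpj probe read 9.42, 9.54, 8.79 and 9.22 in Control and 9.68, 9.56, 8.47 and 8.75 in Dex. Dex 1 and 2 were the highest of all arrays and Dex 3 and 4 the lowest, with all Control arrays between them. Its log2 fold change was -0.13 ± 0.32 (SE, limma adjusted p = 0.921), and it turned to 0.087 without Dex 3 and to 0.0069 with slide as a random block, while on their shared slide Dex 3 lay below Control 1, at a difference of -0.95. The brighter Rbpjl2 probe read 7.66, 8.24, 8.10 and 8.03 in Control and 8.24, 8.18, 7.27 and 7.12 in Dex. The dimmer Rbpjl2 probe read 6.54, 6.87, 6.81 and 6.81 in Control and 7.02, 7.15, 5.73 and 5.37 in Dex. On all 3 probes Dex 3 and 4 lay below Dex 1 and 2, by 1.01, 1.02 and 1.53 on the log2 scale, gaps that 35.3%, 35.2% and 17.3% of all probes reached.

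The 3 ligands all had a lower mean in Dex, and Dll1 and Jag1 were near background on part of the arrays. Dll1, a Delta-like ligand presented by neighboring cells, is 1 of the 2 members without overlap between the groups. Its probe, shown for that reason, is placed by the array annotation on a stretch of genome longer than its 60 bases.
Dll1, rn3 chr1:54243701-54243856, - strand: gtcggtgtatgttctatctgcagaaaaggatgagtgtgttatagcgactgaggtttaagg
It read 4.08, 4.33, 4.53 and 4.94 in Control and 1.04, 1.13, 3.57 and 3.53 in Dex. Every Dex array lay below every Control array, with Dex 1 and 2 far below Dex 3 and 4. The log2 fold change was -2.15 ± 0.64 (SE, limma unadjusted p = 0.00992, adjusted p = 0.256), with a 95% interval from -3.63 to -0.67. The probe was well above background on all 4 Control arrays, on Dex 3 and 4, and not on Dex 1 and 2. On Dex 1 and 2 its processed intensities were 2.32 and 2.31 units, against 16.6 and 17.7 on Dex 3 and 4 and 16.5 to 35.4 in Control. The raw mean signals of the spot were closer, at 53.2 and 54.1 units on Dex 1 and 2, 71.0 and 73.4 on Dex 3 and 4, and 71.4 to 105 in Control, over local backgrounds of 44 to 46.5. The size of the difference depended on the background treatment and on these arrays. It was -0.27 with the normexp correction of the raw signals (limma adjusted p = 0.151) and -0.81 without Dex 1 and 2 (limma adjusted p = 0.0636), the 19 alternatives gave adjusted p-values of 0.00572 to 0.889 with limma, and Dex 3 lay 0.51 below Control 1 on their shared slide.

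Jag2, a Jagged ligand expressed by thymic epithelium, read 5.63, 5.65, 5.09 and 5.68 in Control and 5.48, 5.26, 4.24 and 4.49 in Dex. Dex 3 and 4 lay below all Control arrays, while Dex 1 and 2 lay between Control 3 and the other Control arrays. The log2 fold change was -0.64 ± 0.31 (SE, limma adjusted p = 0.531), with -1.04 without Dex 1 and 2, -0.15 without Dex 3 and 4 and -1.39 between Dex 3 and Control 1 on their shared slide. With the normexp correction it was -0.22. Jag1, the other Jagged ligand, was well above background on 2 Control arrays and on no Dex array. It read 3.44, 2.28, 4.18 and 3.37 in Control and 3.18, 1.85, 2.49 and 2.20 in Dex, and the groups overlapped (limma adjusted p = 0.542). No fold is read from Jag1. For each Dex array the larger of the Jag1 reading and the lowest signal well above background was taken. The Control mean of Jag1 did not exceed the average of these values.

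The 3 targets did not differ in 1 direction. Dtx1 encodes Deltex, an E3 ubiquitin ligase that binds the intracellular part of Notch and is itself induced by Notch signals in T cells. Of the 2 members without overlap it is the one that was well above background on every array, and its probe is shown for that reason.
Dtx1 (LOC687424), rn3 chr12:36910476-36910535, + strand: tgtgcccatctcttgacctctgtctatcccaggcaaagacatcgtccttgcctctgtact
It read 7.73, 8.34, 7.34 and 8.51 in Control and 9.32, 9.46, 8.78 and 9.96 in Dex. The lowest Dex array exceeded the highest Control array, and Dex 1 and 2 and Dex 3 and 4 had nearly the same mean, at 9.39 and 9.37. The log2 fold change was 1.40 ± 0.34 (SE, n = 4 arrays per group, limma unadjusted p = 0.00311, adjusted p = 0.147), a 2.64-fold higher signal with a 95% interval from 1.54-fold to 4.52-fold. Within the replicate numbers Dex exceeded Control by 1.59, 1.12, 1.44 and 1.45 on the log2 scale for numbers 1 to 4, and Dex 3 exceeded Control 1 by 1.04 on their shared slide. The adjusted p was 0.0790 with a block for the replicate number, and it ranged from 0.0226 to 0.771 over the 19 alternatives, 2 of which called the gene.

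Hes1, the repressor that is the best known Notch target, read 4.74, 5.09, 4.61 and 4.46 in Control and 4.05, 5.13, 3.44 and 3.82 in Dex. Dex 1, 3 and 4 lay below all Control arrays and Dex 2 lay above them, and Dex 1 was the 1 array on which the probe was not well above background. The log2 fold change was -0.62 ± 0.36 (SE, limma adjusted p = 0.620), with -0.09 after the normexp correction, -0.14 without Dex 3 and 4, -1.30 between Dex 3 and Control 1 on their shared slide, and -0.97 without Dex 1 and 2 (limma adjusted p = 0.0320). Hey1, a related repressor, read 3.98, 3.60, 4.12 and 4.35 in Control and 4.24, 3.88, 4.70 and 4.77 in Dex, where it was not well above background on Dex 2. Dex exceeded Control in all 4 replicate numbers, by 0.26, 0.28, 0.58 and 0.41, but the groups overlapped (log2 fold change 0.38, limma adjusted p = 0.685). The difference was 0.060 after the normexp correction, 0.14 with 75th percentile scaling, 0.25 without Control 2, 0.049 without Dex 3 and 4, 0.64 without Dex 1 and 2 and 0.72 between Dex 3 and Control 1 on their shared slide.

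**Figure D3:**
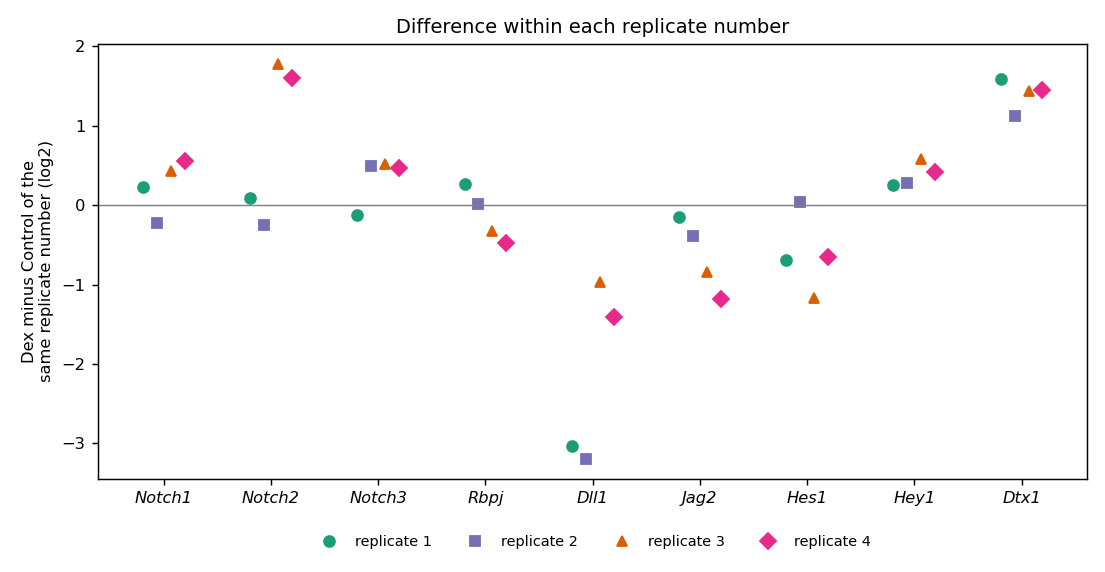
Difference between the Dex and the Control array of the same replicate number (y axis, log2) for 9 members, without Jag1. The 4 differences of Dtx1 lie between 1.12 and 1.59, those of Dll1 between -3.19 and -0.96, the 2 lowest of them on Dex arrays where its probe was not well above background, and those of Notch2 on both sides of 0.

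The letters TGGGAA, the core that RBPJ binds, were searched on both strands (TTCCCA on the other) in the 250 bases before 1 transcription start per gene, taken from RefSeq sequence of the GRCr8 assembly. For Rbpj this start lies within the gene (window chr14:61615261-61615510, gene chr14:61551366-61736220, - strand), so its window does not cover the outermost start, and that of Dtx1 overlaps the first bases of the gene. Promoters were at hand for 9 members, all but Hey1, and 3 of the 9 held the core, Hes1 and Dll1 with 2 copies and Rbpj with 1, against 21.6% of 27457 promoters. In Hes1 both copies ran in the same direction and began 123 and 109 bases before the start. The general form of a glucocorticoid receptor site, GNACA and TGTNC with 3 bases between them, was in none of the 9 windows and in 0.364% of all promoters. A match is a description of the letters and no evidence of binding. The promoters of Hes1 and Dll1 are shown because they hold 2 copies each, and the capitals mark the RBPJ core.
Hes1, GRCr8 chr11:84213046-84213295, - strand: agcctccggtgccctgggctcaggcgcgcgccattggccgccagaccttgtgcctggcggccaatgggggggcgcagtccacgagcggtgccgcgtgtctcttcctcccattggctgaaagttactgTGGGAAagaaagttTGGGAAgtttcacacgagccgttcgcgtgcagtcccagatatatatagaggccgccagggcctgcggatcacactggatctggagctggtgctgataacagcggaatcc
Dll1, GRCr8 chr1:64993275-64993524, - strand: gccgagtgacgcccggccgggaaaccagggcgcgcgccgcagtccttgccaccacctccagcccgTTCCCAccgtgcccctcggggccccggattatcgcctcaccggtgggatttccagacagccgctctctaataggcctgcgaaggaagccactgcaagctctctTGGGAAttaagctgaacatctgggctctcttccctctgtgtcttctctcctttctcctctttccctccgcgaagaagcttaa

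The rest of the pathway was followed through a list of 57 genes in 10 roles, of which 51 were on the array, 43 by name and 8 through an accession, a gene number or an older name. None of the 51 passed an adjusted p of 0.05 in limma, which 1.01% of all gene symbols passed. In 10 the unadjusted p was under 0.05 (3 higher and 7 lower in Dex), against 12% of all gene symbols, and 8 were called by the signal to noise statistic (3 higher and 5 lower), against 8.6%. Their median log2 fold change was -0.02, against 0.01 over all gene symbols, and 23 were higher and 28 lower. For 31 of the 51 the 95% interval excluded a change of 2-fold in either direction. In 11 of the 51 the groups did not overlap (3 higher and 8 lower in Dex), against 11.3% of all gene symbols. The share in the list is the larger one, and this difference was not tested.

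Of 11 thymocyte genes known as Notch targets, 8 had a lower mean in Dex, as had 48.8% of all gene symbols, and the median log2 fold change was -0.32. Of the 11, 4 were lower at an unadjusted limma p under 0.05, as were 5.46% of all gene symbols. Of the 12 thymocyte markers, 9 also had a lower mean in Dex, and Ptcra is in both lists. Whether these Notch targets differ from other genes was not tested. Bcl11b, the zinc finger factor that fixes T cell identity, read 12.06, 11.79, 11.88 and 12.04 in Control and 10.92, 10.95, 11.18 and 11.23 in Dex on its brighter probe. All Dex arrays lay below all Control arrays, and the difference of -0.87 ± 0.15 (SE) was the closest of the list to the threshold (limma adjusted p = 0.0546). The dimmer Bcl11b probe did not share it, with a difference of 0.15 and overlapping groups. Runx1, a factor of T cell development, had a log2 fold change of -0.70 ± 0.15 (SE, limma adjusted p = 0.113), with 12.85 to 13.20 in Control and 12.14 to 12.45 in Dex.

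Among the other roles, HES and HEY genes besides the members had 4 of 5 higher means in Dex. Hes7, a repressor of the segmentation clock, read 12.13, 11.56, 12.14 and 12.11 in Control and 12.74, 13.51, 13.13 and 13.32 in Dex, without overlap, a log2 fold change of 1.19 ± 0.22 (SE, limma adjusted p = 0.0686). Heyl followed the pairs of Dex arrays instead, with 6.54 to 7.18 in Control, 6.64 and 6.06 on Dex 1 and 2, and 7.75 and 8.19 on Dex 3 and 4. Of 11 nuclear cofactors, 9 had a lower mean in Dex. Maml2, a Mastermind-like coactivator, went the other way, with 7.12, 6.65, 6.94 and 7.03 in Control and 7.76, 7.68, 7.74 and 7.98 in Dex, a log2 fold change of 0.86 ± 0.16 (SE, limma adjusted p = 0.0724). With the normexp correction the fold change of Maml2 was 0.49 on the log2 scale. Hdac1, a histone deacetylase of corepressor complexes, differed by -0.62 ± 0.19 (SE, limma adjusted p = 0.260) without overlap.

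On their brightest probes, the 9 genes of receptor cleavage had log2 fold changes between -0.30 and 0.23, with intervals that excluded 2-fold. Adam10, the protease that makes the first ligand-dependent cut, read 11.53 to 11.70 in Control and 11.24 to 11.39 in Dex, a difference of -0.30 without overlap (limma adjusted p = 0.491), and on its other probes by -0.50 and -0.11. Aph1a, a subunit of gamma-secretase, differed by 0.23, and on a dimmer probe by 0.48, where the interval from -0.22 to 1.17 did not exclude 2-fold. Among 5 genes of receptor glycosylation, Mfng, a fringe enzyme that changes which ligands a receptor prefers, differed by -0.41 without overlap (limma adjusted p = 0.441) and Rfng by -0.13. Poglut1, which adds glucose to the receptor and is named here after its values were seen, followed the pairs of Dex arrays, with 5.97 to 6.17 in Control, 6.75 and 6.82 on Dex 1 and 2, and 5.26 and 5.005 on Dex 3 and 4 (log2 fold change -0.12, 95% interval from -1.11 to 0.88). Notch4, the remaining receptor, read 8.88 to 9.07 in Control and 8.45 to 8.87 in Dex (log2 fold change -0.31, limma adjusted p = 0.567).

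Of the other ligands, Dll3 differed by 0.48 and Dll4 by -0.13, the latter well above background on 3 Control and 2 Dex arrays. Dlk1, a ligand-like inhibitor, read 4.38 to 5.45 in Control and 4.21, 4.03, 7.44 and 9.76 on Dex arrays 1 to 4, so its difference of 1.65 (limma adjusted p = 0.709) lay on Dex 3 and 4 alone. The ligand ubiquitin ligases Mib1 and Neurl1, which drive ligand uptake, differed by 0.58 and -0.01. All 4 genes of receptor turnover had a higher mean in Dex. Among them Numbl, related to the Notch inhibitor Numb, was not well above background on any Control array and was on Dex 3 and 4, with 1.62 to 2.56 in Control and 2.49 to 3.71 in Dex (limma adjusted p = 0.308), and no fold is read from it. Dtx4, a relative of Dtx1, differed by 0.51.

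**Figure D4:**
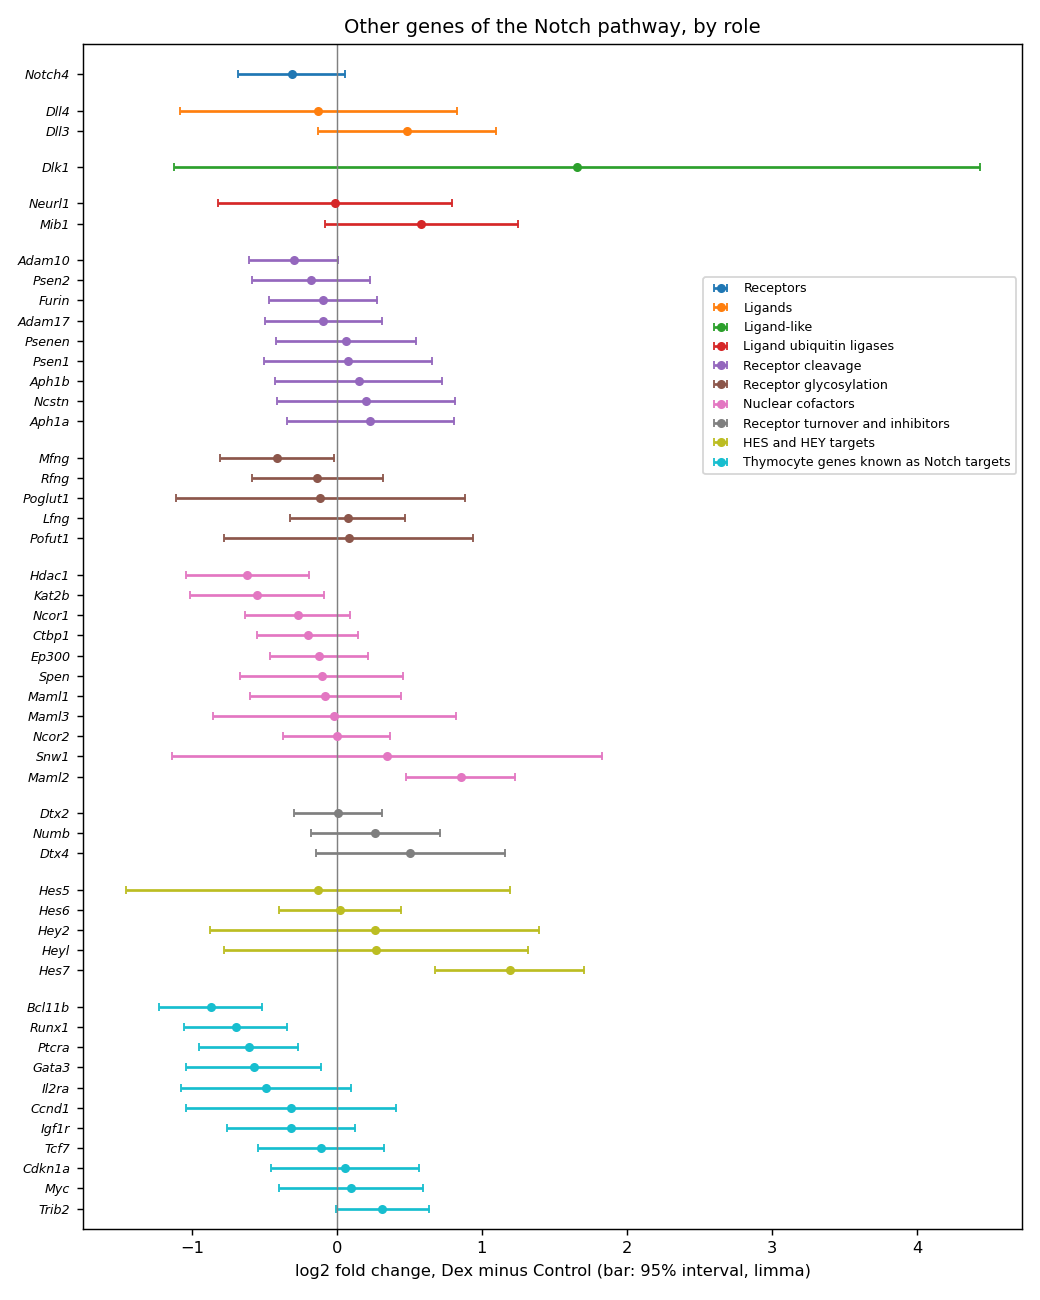
Log2 fold change (x axis, Dex minus Control) with 95% intervals from limma for the other pathway genes, without Numbl, colored by role. Hes7 and Maml2 lie to the right of 0 with their whole intervals, Bcl11b, Runx1 and Ptcra are among those to the left, and the genes of receptor cleavage lie close to 0.

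Over the 8 arrays, the genes outside these lists whose probes followed Notch1 most closely, among 10776 gene symbols well above background on every array, were Or9s27 (Pearson r = 0.967), Hoxc5 (r = 0.962), Zc3h12a (r = 0.953), Des (r = 0.948) and Ipo11 (r = 0.946). These are the highest values of many over few arrays that share labeling, slides and the pairs described above, and they are given as a description.

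Processing moved the differences of the members unequally. Of the 19 alternatives, 3 leave the log2 fold change of a member as it is by construction and 15 gave values of their own. Over them the log2 fold change of Dtx1 lay between 1.04 and 1.63 and that of Notch3 between 0.06 and 0.45. Notch1, Notch3, Hey1 and Dtx1 were higher and Dll1, Jag2 and Hes1 lower in Dex under each of them, whereas Notch2 changed sign under 1 and Rbpj under 3.

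**Figure D5:**
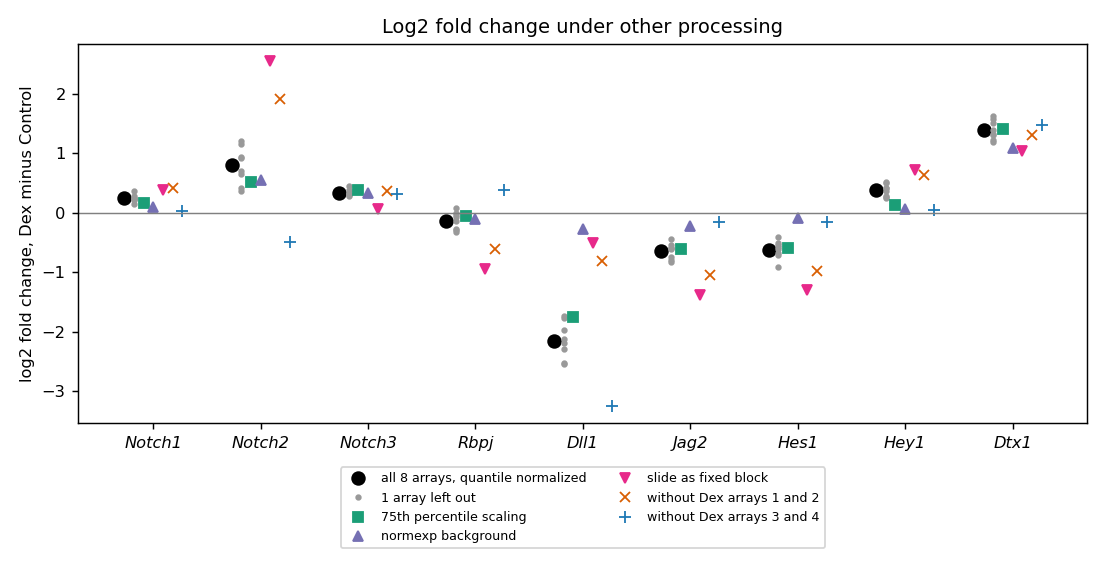
Log2 fold change (y axis, Dex minus Control) of 9 members, without Jag1, with all 8 arrays and under other processing (see key). Dtx1 stays between 1.04 and 1.63, Dll1 ranges from -3.24, a value that rests on the 2 Dex arrays where its probe was not well above background, to -0.27, and Notch2 and Rbpj change sign.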

How the data were processed

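The authors made Cy3-labeled cRNA from total RNA, hybridized it to Agilent arrays of the whole rat genome, read in 1 color, and deposited the scanner output of Feature Extraction 9.5.3.1, with an intensity per spot that is background-subtracted within the array and not normalized between arrays. The authors also deposited log2 values, quantile normalized and summarized per probe by median polish. These steps were repeated here from the intensities, without spots flagged as outliers, and the result correlated with the deposited log2 values at 0.999999 or more on every array. Probe positions refer to rn3 per the file headers. Array names were matched to the GRCr8 gene table by accession, gene number, symbol or synonym. A gene with several probes was represented by the brightest.

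Groups came from the labels. limma 3.58.1 (R 4.3.3; lmFit and eBayes, two-sided, no block) compared Dex with Control, with p-values adjusted by Benjamini-Hochberg over 41012 probes and called at 0.05. The methods' signal to noise statistic, the difference of means over the sum of SDs, was set against a null made of the values of all probes together under each of the 70 ways to split the arrays, at one-tailed p 0.01 and a fold of 1.2. The study drew its null from permutations of samples and probes, so calls made here need not be the study's calls. Marker lists were compared by exact permutation of the 8 arrays. The fit was tested on simulated data.

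The members and the lists were chosen with earlier results of these data known. From the wider list the text names any called gene and, per role, the 2 genes of largest absolute log2 fold change. Control and Dex arrays of the same replicate number deviated together from their group means (r = 0.397, 0.129, 0.550 and 0.184 across probes), so a fit with the number as a block was run beside the fit without it. Arrays of unlike number reached similar values (0.401 for Control 1 with Dex 2, 0.392 for Control 3 with Dex 4, 0.188 for Control 2 with Dex 1), so these correlations do not single out the pairs. Alternatives varied the scaling, the background correction, the filter on dim probes, outlier spots, the replicate number or slide as a block, the arrays and the test. Leaving out each pair of Dex arrays was added after the data were seen.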

Additional observations from a re-analysis of the deposited data

Results flagged for a closer look

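Of 56 groups of 4 arrays examined for the members and for the genes that the rule names from the wider list, 2 held an array far from its 3 neighbors by Dixon's criterion, where chance flags about 1 group in 20. Jag2 read 5.09 on Control 3, against 5.63 to 5.68 on the other Control arrays. Hes7 read 11.56 on Control 2, against 12.11 to 12.14 on the other Control arrays.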

How the results depend on the processing

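Of the 10 members, 0 were called under 75th percentile scaling, the deposited log2 values, normexp, outlier spots kept, dim probes left out (Jag1 was then not tested), the slide as a fixed block and each array left out (0 to 0 members, 0 to 0 genes of the wider list). With the replicate number as a block 0 members and 0 genes of the wider list were called, so the block changed no call among the listed genes, although it lowered the count over all probes from 319 to 81. The signal to noise statistic called 2 members (Dtx1, Dll1) and 8 genes of the wider list. The slide as a random block, at an estimated correlation of -0.24, called 2 members (Dtx1 at 1.46 and Dll1 at -2.42) and 5 genes of the wider list and turned Rbpj to 0.0069. This fit called 1838 of all 41012 probes, against 319 without a block. With the slide as a fixed block the difference rests on Control 1 and Dex 3 alone. Normexp called 5 and the filter on dim probes 4 genes of the wider list, among them Bcl11b, Runx1, Hes7 and Maml2 in both. Over all probes, normexp called 915 of 41012 and the filter 562 of the 28475 that it kept. With 1 array left out Rbpj ranged from -0.31 to 0.087, the latter without Dex 3. Leaving out a pair of Dex arrays changes both the spread and the Dex means, and the count over all probes was 6631 without Dex 1 and 2 and 7755 without Dex 3 and 4. Without Dex 1 and 2, 3 members (Notch2 at 1.92, Hes1 at -0.97 and Jag2 at -1.04) and 12 genes of the wider list were called. Without Dex 3 and 4, 2 members (Dtx1 at 1.48 and Dll1 at -3.24) and 10 genes of the wider list were called, and Notch2 (-0.48) and Rbpj (0.39) turned. No fold is read from this value of Dll1, whose probe was not well above background on Dex 1 and 2. The causes were not tested. Signal near background limits Dll1, Jag1, Hes1 and Hey1, and the difference of Jag2 shrank to -0.22 with normexp.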
